A study of Mus musculus with 12 samples.

Results

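The effect of a tumour on lymph nodes whose pain-sensing nerves had been left alone was measured as the difference between 2 groups of mouse lymph node RNA libraries. The T NC group came from mice given B16F10 cells, a mouse melanoma line, in the tongue. The NT NC group came from mice that received no such cells. In both groups the nociceptive nerves that supply the tumour-draining lymph node were not inhibited. The members are the 6 libraries with these labels, 3 for each group, of 12 libraries in the series, and they were taken by label and by no measured value. The other 6 libraries come from mice in which those nerves had been inhibited, with the tumour (T NDE) or without it (NT NDE). They enter here through the count filter, the scaling, the estimate of spread and the slope of a covariate described below. They also enter the 12-library average used for transcript length and the fits with libraries left out. Their own tumour difference is given in the closing comparison and in the plots of list medians, length bins and genes named by rank. The sources used here do not give strain, sex, age, the time after inoculation or the way the nerves were inhibited. Repetitions are described as biologically independent, with no word on whether a library holds 1 mouse or several. The libraries are called T-NC-1 to T-NC-3 and NT-NC-1 to NT-NC-3 by group and replicate number. The p-values of the main fits set the group difference against the spread between libraries within groups, taken over all 12 libraries. Each library is whole-node RNA, and fewer cells of a type and less RNA per cell cannot be told apart in it.

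A lymph node that drains a tumour receives lymph carrying antigen, cytokines and debris from it. Lymph passes first along sinuses lined by resident macrophages, then reaches follicles of B cells and a zone of T cells held in a stromal network. Neutrophils are scarce in a resting node and can enter from blood or lymph during inflammation. Cytokines of the interleukin-6 family and granulocyte colony-stimulating factor signal through the transcription factor STAT3, which induces its own inhibitor, SOCS3. Nociceptors end close to node vessels and capsule and release the neuropeptides CGRP and substance P, whose receptors are carried by immune and stromal cells.

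Library totals in the 6 libraries ran from 16862953 to 24467873 counts, and 17301 of 55487 listed genes had enough counts to be tested. B cell and T cell genes were abundant in all 6, with the 15 pan B cell genes summing to 7837 to 11120 CPM (a gene's counts scaled to a fixed library size) and the 18 pan T cell genes to 2622 to 3166 CPM. Of the 3 NT NC libraries, 2 carried transcripts of salivary gland, the tissue that lies next to the nodes of the neck. Bpifa2, a secreted salivary protein, stood at 10.4, 998.1 and 20030 CPM in NT-NC-1, NT-NC-2 and NT-NC-3, and at 9.41, 22.3 and 38.0 CPM in the T NC replicates. The 23 listed salivary genes, of which 16 were tested, summed to 107.6 to 30790 CPM in NT NC and to 90.9 to 131.8 CPM in T NC. For this reason a second fit held the log2 CPM of Bpifa2 constant (called the Bpifa2-adjusted fit). The slope of that covariate was estimated over all 12 libraries, so the NDE libraries also shape the adjusted values. List medians are given from both fits. For several lists that moved, the median with the covariate in the 6 NC libraries alone is added. Single genes are given from the fit without the covariate, with the adjusted value beside the leading genes and beside those it moved most. Genes of melanocytes, the cell type from which melanoma arises, were no higher in T NC. The 15 listed ones summed to 17.1 to 20.6 CPM in T NC and to 17.3 to 25.02 CPM in NT NC. Of these 6 were tested. The 9 others, with the pigment genes Mlana, Tyrp1 and Dct among them, had at most 11 counts in any of the 6 libraries. Tyr, tyrosinase, stood at 0.286, 0.508 and 0.415 CPM in T NC and at 0.731, 0.917 and 0.808 CPM in NT NC, with the groups separate and the tumour libraries lower (log2 fold change -1.03, SE 0.45; -0.63 Bpifa2-adjusted). The other tested pigment-cell genes overlapped between groups, with Pmel at 0.35 (SE 0.39; 0.18 Bpifa2-adjusted), Trpm1 at -0.23 (SE 0.22), Mitf at -0.11 (SE 0.17; -0.06 Bpifa2-adjusted) and Gpnmb at 0.03 (SE 0.25; -0.18 Bpifa2-adjusted), except Sox10. Sox10, which glia and salivary epithelium also express, stood at 0, 0.0462 and 0 CPM against 0.0563, 0.542 and 6.16 CPM, highest in the most salivary library.

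In edgeR's quasi-likelihood test no gene differed between tumour-bearing and tumour-free nodes at an adjusted p of 0.05 (0 of 17301 genes, 0%; smallest adjusted p = 0.286), nor in the Bpifa2-adjusted fit (0 genes, 0%; smallest adjusted p = 0.598). At an unadjusted p under 0.05, 792 genes were higher in T NC (4.58% of those tested) and 558 lower (3.23%). In the Bpifa2-adjusted fit these were 639 (3.69%) and 419 (2.42%), and 733 genes met that level with the same sign in both fits. With DESeq2 40 genes passed, of which 29 (0.168%) were higher in T NC and 11 (0.0636%) lower, and with limma-voom 0, where 1405 genes had an unadjusted p under 0.05. In 1346 genes (7.78%) every T NC library lay above every NT NC library, and in 1251 (7.23%) every one lay below. By sign alone 48.0% of genes were higher and 52.0% lower, and 49.7% were higher in the Bpifa2-adjusted fit. The median log2 fold change of all tested genes was -0.01, and the middle 50% of genes lay between -0.12 and 0.10. The values that follow are therefore differences in level that did not pass the test over all genes. Counts of list genes given below have the shares of all genes as their background. Those are 48.0% higher and 52.0% lower by sign, 7.78% and 7.23% without overlap, and 4.58% and 3.23% at an unadjusted p under 0.05. For single genes, the exact permutation test that these 6 libraries allow has 0.1 as its smallest two-sided p.

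Transcripts of neutrophil genes were more abundant in T NC than in NT NC nodes. All 17 genes of neutrophil granules and secreted proteins were higher, and their median log2 fold change was 1.48. For 12 of them the groups did not overlap, and 14 had an unadjusted p under 0.05, against 7.78% and 4.58% of all genes. Lcn2 (chr2:32384633-32388252, mm10), the lipocalin that withholds iron from bacteria, measured 21.6, 30.3 and 38.9 CPM in the T NC replicates and 13.1, 8.75 and 8.43 CPM in the NT NC replicates. That is a log2 fold change of 1.59 (SE 0.23, 3.00-fold; edgeR adjusted p = 0.286) and 1.47 in the Bpifa2-adjusted fit. S100a8 and S100a9 encode the paired subunits of calprotectin, a metal-binding alarmin. S100a8 stood at 49.1, 78.0 and 96.5 CPM in T NC against 34.1, 22.3 and 17.6 CPM in NT NC (log2 fold change 1.596, SE 0.33). S100a9 stood at 82.8, 110.6 and 142.9 CPM against 55.1, 38.8 and 26.6 CPM (1.48, SE 0.31). Every tumour library lay above every tumour-free one for all 3 of these genes, with T-NC-1 the lowest of its group and NT-NC-1 the highest of the other. Camp, the cathelicidin antimicrobial peptide, showed the same order at 12.4, 25.2 and 30.3 CPM against 9.34, 4.75 and 3.23 CPM (1.98, SE 0.42). Mmp9, the gelatinase of neutrophil granules, was higher by 0.70 (SE 0.17). Mpo, Elane and Prtn3, made at the promyelocyte stage, had log2 fold changes of 1.13, 1.30 and 1.02. Pglyrp1, a peptidoglycan-binding granule protein, had the smallest difference of the list at 0.28 (0.18 Bpifa2-adjusted).

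**Figure D1:**
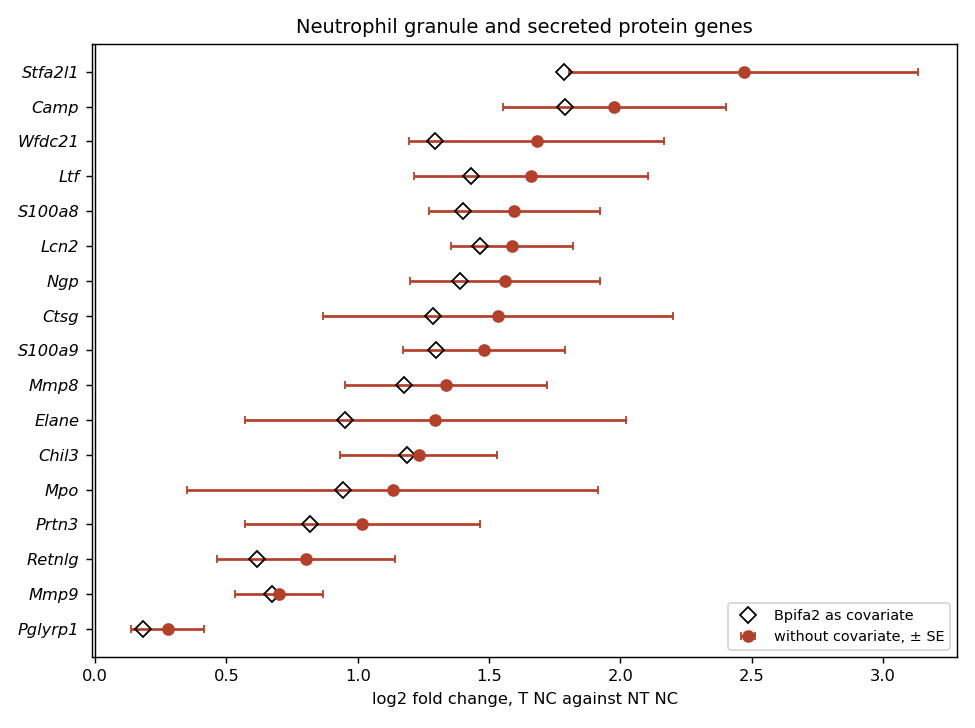
Log2 fold change of the 17 neutrophil granule and secreted protein genes between T NC and NT NC (horizontal axis), 3 libraries per group, as filled circles with bars of 1 SE; open diamonds give the Bpifa2-adjusted fit. All 17 points lie above 0, from 0.28 for Pglyrp1 to 2.47 for Stfa2l1, and the adjusted values lie to the left of the unadjusted ones.

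Of 14 tested genes of the neutrophil surface and of neutrophil signalling, 12 were higher in T NC, with a median of 0.70. Without overlap were 6 of them, and 9 had an unadjusted p under 0.05. Cd177, a glycoprotein of the neutrophil surface, measured 7.57, 12.8 and 14.0 CPM in T NC and 6.64, 3.13 and 3.08 CPM in NT NC (log2 fold change 1.43, SE 0.30). Il1r2, a decoy receptor that binds interleukin-1 without signalling, differed by 0.74 (SE 0.20), and Fpr1, the receptor for bacterial formyl peptides, by 1.14 (SE 0.42). The chemokine receptor genes Cxcr2 and Cxcr1, at -0.06 and 0.52 (0.25 Bpifa2-adjusted for the latter), and the G-CSF receptor gene Csf3r, at 0.27, had an unadjusted p above 0.05. In the Bpifa2-adjusted fit the medians of both lists were 1.29 and 0.68, with 17 of 17 and 12 of 14 genes higher. With the covariate in the 6 NC libraries alone they were 1.04 and 0.60. Leaving out any 1 of the 6 libraries gave medians of 1.26 to 1.90 for the granule list and 0.54 to 0.79 for the surface list. Without the 3 libraries rich in salivary transcripts, which leaves NT-NC-1 as the only NT NC library, the granule median was 0.84. The summed granule list stood at 351.1, 527.4 and 625.6 CPM in T NC and at 280.0, 176.8 and 132.1 CPM in NT NC, so that within NT NC it was lower in both salivary libraries than in the third. The part of that in the result was tested only through the adjusted fit and the fits without those libraries.

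Acute-phase and STAT3-related genes were higher together with the neutrophil genes. Hp (chr8:109575128-109579172) encodes haptoglobin, which binds free haemoglobin and is also stored in neutrophil granules. It measured 19.6, 14.6 and 22.5 CPM in T NC and 8.33, 7.002 and 5.56 CPM in NT NC (log2 fold change 1.44, SE 0.25, 2.71-fold; 1.56 Bpifa2-adjusted). All 3 T NC libraries were above the highest NT NC library. Of 12 tested acute-phase genes 10 were higher, 2 without overlap and 5 at an unadjusted p under 0.05, and the median was 0.24 (0.27 Bpifa2-adjusted). The 5 hepatic members that could not be tested, Saa1, Saa2, Orm1, Orm2 and Orm3, had at most 13 counts in any of the 6 libraries. Serpina3g, a protease inhibitor of lymphoid cells, differed by 0.24 (SE 0.09). The complement list, which shares C3 with the acute-phase list, showed no shared direction, with 11 of 20 higher and a median of 0.03 (0.04 Bpifa2-adjusted; -0.05 with T-NC-1 left out to 0.09 with NT-NC-1 left out).

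Socs3 (chr11:117966079-117970047), the feedback inhibitor of STAT3-activating receptors, had the second smallest p of all named genes. It stood at 120.5, 113.8 and 121.4 CPM in T NC and at 59.8, 84.9 and 77.0 CPM in NT NC. The 3 tumour libraries lay close together and clear of the other group, a log2 fold change of 0.68 (SE 0.11, 1.603-fold; 0.69 Bpifa2-adjusted; edgeR adjusted p = 0.286). Among the 17 STAT3 target and SOCS genes, 15 were higher, 10 without overlap and 9 at an unadjusted p under 0.05. The median of 0.13 was modest, and 0.19 Bpifa2-adjusted. It was 0.23 without T-NC-3, 0.23 without NT-NC-2 and 0.25 without the 3 salivary libraries. Bcl3, an atypical member of the I kappa B family, measured 73.8, 87.6 and 96.6 CPM in T NC and 60.8, 65.9 and 66.0 CPM in NT NC (0.42, SE 0.11). Socs1, the inhibitor of interferon-activated kinases, stood at 21.8, 25.6 and 33.5 CPM against 20.4, 17.5 and 20.5 CPM (0.47, SE 0.15). Cebpd, a transcription factor induced in acute-phase responses whose exons overlap those of Spidr, was higher by 0.51 (SE 0.15) and by 0.68 (SE 0.14) in the Bpifa2-adjusted fit. Lcn2 belongs to the neutrophil, STAT3 and acute-phase lists alike, so the lists are not separate evidence.

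**Figure D2:**
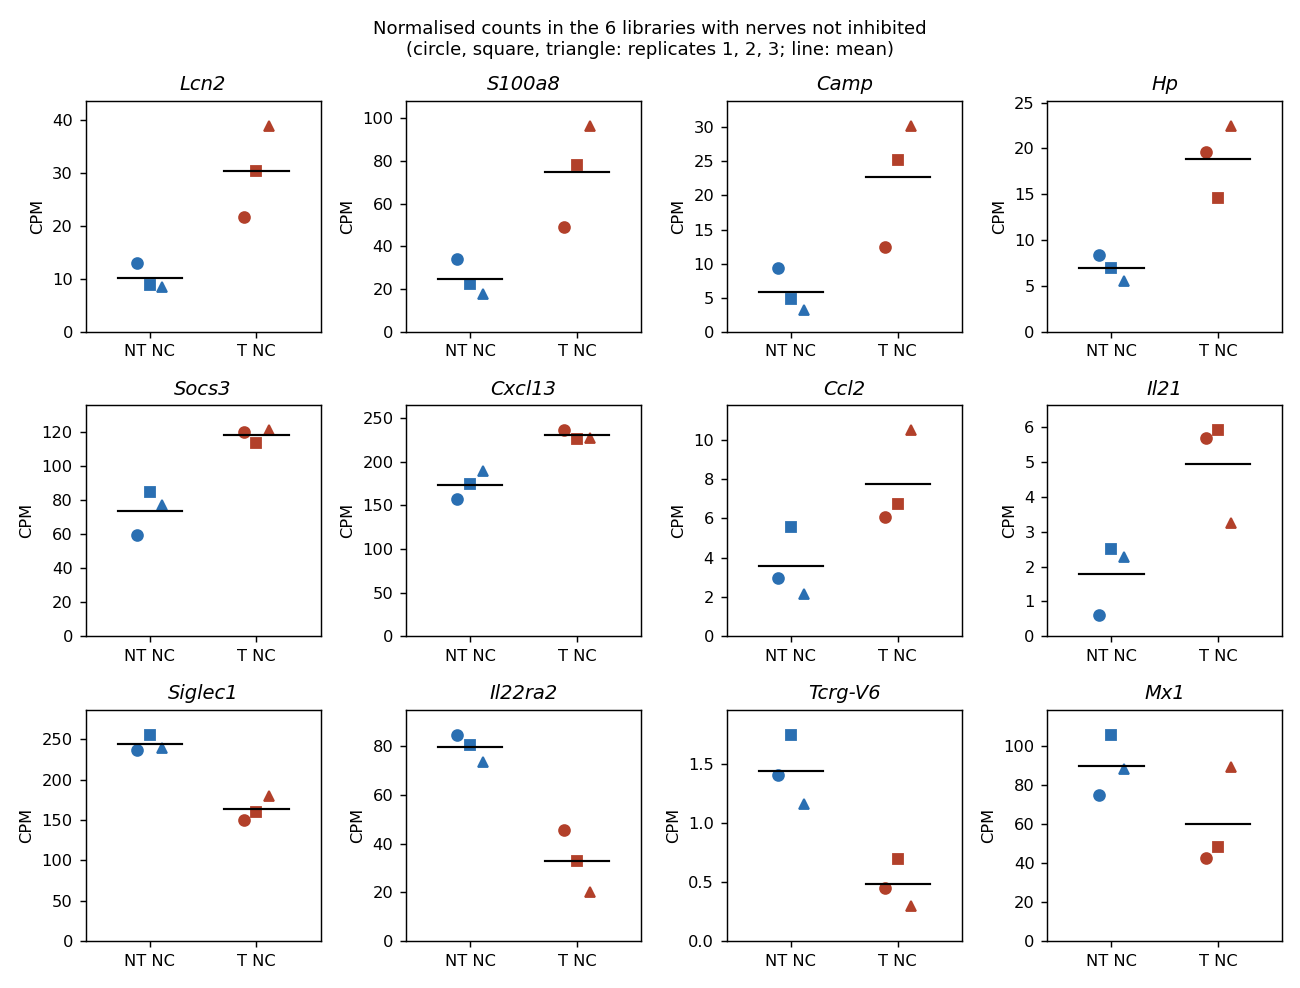
Normalised counts (CPM, vertical axes from 0) of 12 genes in each of the 3 NT NC (blue) and 3 T NC (red) libraries, with replicates 1, 2 and 3 as circle, square and triangle and the mean as a line. The groups are separate for 11 of the genes, with Lcn2 at 21.6 or more in T NC and at 13.1 or less in NT NC, and overlap for Mx1, where T-NC-3 stood at 88.8 CPM.

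Other genes with the smallest p among those higher in T NC were of several kinds. Il1f9, which encodes the epithelial and myeloid cytokine interleukin-36 gamma, measured 1.88, 1.52 and 3.08 CPM in T NC and 0.675, 0.750 and 0.404 CPM in NT NC (log2 fold change 1.80, SE 0.35). Ifitm6, of the interferon-induced transmembrane family, stood at 7.61, 8.31 and 10.7 CPM against 3.94, 4.08 and 2.32 CPM (1.35, SE 0.27). Olfm4, a glycoprotein of a subset of neutrophils, stood at 2.33, 1.71 and 6.57 CPM against 0.563, 0.500 and 1.01 CPM (2.34, SE 0.49), with T-NC-3 far above the other tumour libraries. All 3 are low-count genes with no overlap between groups. Slc15a3, a lysosomal peptide and histidine transporter, was higher by 0.35 (SE 0.06). H2afx, the histone variant phosphorylated at DNA breaks, held 64.8, 64.0 and 65.1 CPM against 48.7, 49.4 and 51.4 CPM (0.37, SE 0.07), a small difference with little spread in either group. The exons of Slc15a3, H2afx and Olfm4 overlap another annotated gene (Tmem132a, Gm44335 and Gm6999), and reads shared between them could not be assigned here.

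Promoter sequence was searched for the 24 genes named by rank (12 higher and 12 lower), since several of those higher are known targets of cytokine-activated factors. RefSeq promoter windows on GRCm38.p6 were found for 18 of them, 9 in each direction, and the 250 bases before the gene start were read on both strands. The motifs were the STAT palindrome TTCNNNGAA, the C/EBP motif TTGCNNNAA, the interferon response motif GAAANNGAAA and the kappa B motif GGGANNTTCC. STAT letters occurred in 3 of 9 higher and 1 of 9 lower genes, against 7.02% of all 32851 windows of that length. C/EBP letters occurred in 1 and 1 of them (8.29% of all windows), and the other motifs (2.98% and 1.21%) in none. The matches are shown with up to 10 bases on each side, 5′ to 3′ on the strand of the gene, with the motif letters in capitals, because they let the sites of higher and lower genes be compared directly.
Socs3 (higher, STAT, chr11:117969502-117969530, minus strand): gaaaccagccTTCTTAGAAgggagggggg
Il1f9 (higher, STAT, chr2:24186338-24186366, plus strand): tcacctgaacTTCCCAGAAgcacagttct
Ifitm6 (higher, STAT, chr7:141016893-141016912, minus strand): ccatatgaacTTCCTTGAAa
Col6a5 (lower, STAT, chr9:105960834-105960862, minus strand): ggtcgtggatTTCTGAGAAactctgcctt
Olfm4 (higher, C/EBP, chr14:80000135-80000163, plus strand): agagtggggcTTGGTGCAAggtgtggaca
Etv5 (lower, C/EBP, chr16:22439750-22439778, minus strand): ccagctggatTTGCCTGAAgacagggtaa
In GENCODE M21 the Socs3 match lies in an intron of a longer Socs3 transcript, the Ifitm6 match in an exon of Ifitm6, and the Olfm4 match in an intron of Olfm4 and Gm6999, while those of Il1f9, Col6a5 and Etv5 lie outside annotated genes. The match starts 154 bases before the RefSeq start in Socs3, 128 in Il1f9 and 10 in Ifitm6. These are letters in a window and not measured binding.

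Inflammatory cytokine and chemokine genes tended to be higher. Of 17 tested, 14 were higher in T NC, 6 without overlap and 4 at an unadjusted p under 0.05, with a median of 0.32 (0.26 Bpifa2-adjusted). That median was 0.48 without T-NC-1, 0.18 without T-NC-3 and 0.21 without NT-NC-3. Ccl2, the chemokine that draws monocytes, measured 6.05, 6.74 and 10.5 CPM in T NC and 2.98, 5.54 and 2.17 CPM in NT NC (log2 fold change 1.10, SE 0.32). Lif, a cytokine of the interleukin-6 family, measured 4.58, 5.45 and 4.38 CPM against 3.04, 3.08 and 3.94 CPM (0.52, SE 0.23). The groups were separate for both. Il6, Cxcl2, Cxcl3, Csf2 and Csf3 had at most 11 counts in any of the 6 libraries and were not tested, so the ligands upstream of STAT3 were measured only in part. Genes of the NF-kB pathway had a median of 0.07, with 10 of 15 higher and 3 without overlap. It was 0.04 Bpifa2-adjusted, 0.11 without T-NC-1 and 0.01 without the 3 salivary libraries. Icam1, an adhesion molecule, was higher by 0.24 (SE 0.07) and Tnip1, a brake on NF-kB signalling, by 0.19 (SE 0.06). Among 20 immediate early genes 14 were higher, 4 without overlap, with a median of 0.09 (0.12 Bpifa2-adjusted) that was 0.02 without T-NC-3 and 0.03 without NT-NC-1. The AP-1 subunit gene Jun stood at 50.9, 34.9 and 45.1 CPM against 30.6, 32.6 and 33.3 CPM (0.44, SE 0.11), while Junb and Jund were higher by 0.25 (SE 0.07) and 0.27 (SE 0.10; 0.17 Bpifa2-adjusted).

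Interferon genes did not share that direction. Each of the 24 type I interferon response genes had a negative log2 fold change (median -0.42, or -0.35 Bpifa2-adjusted), but for none of them were the groups separate and 2 had an unadjusted p under 0.05. Mx1, an antiviral GTPase, measured 42.2, 48.0 and 88.8 CPM in T NC and 74.6, 105.6 and 88.2 CPM in NT NC (log2 fold change -0.59, SE 0.25). Ifih1, a sensor of double-stranded RNA, differed by -0.37 (SE 0.14) and Ifi44 by -0.53 (SE 0.29). The list varied with single libraries, with a sum of 931.1, 1058 and 1780 CPM in T NC and 1298, 1961 and 1429 CPM in NT NC. The median was -0.84 without T-NC-3, -0.24 without T-NC-1, -0.25 without T-NC-2, -0.18 without NT-NC-2 and -0.09 without the 3 salivary libraries. With the covariate in the 6 NC libraries alone it was -0.19. Interferon gamma response genes had a median of -0.03 over 18 genes (-0.05 Bpifa2-adjusted). Their members Cxcl9, a T cell chemokine, and Gbp2, a guanylate-binding protein, differed by 0.66 (SE 0.25) and 0.22 (SE 0.11), and Cxcl9 was highest in T-NC-3 at 78.5 CPM. The sign of that median was positive in the fits lacking T-NC-1, T-NC-2, NT-NC-2 or the 3 salivary libraries, at 0.05 to 0.07, and it was -0.15 in the one lacking T-NC-3. Of 15 genes of MHC class I and peptide loading, 12 were higher with a median of 0.05. Psmb8, an immunoproteasome subunit, stood at 311.2, 290.0 and 319.6 CPM against 272.0, 266.9 and 259.7 CPM (0.21, SE 0.06). Psmb9, of the same complex, and Tap2, of the peptide transporter, differed by 0.15 (SE 0.07) and 0.15 (SE 0.08), and by 0.08 and 0.07 Bpifa2-adjusted. The exons of Psmb9 overlap those of Tap1, another member of the list. In the Bpifa2-adjusted fit that list's median was -0.02, and it ran from 0.01 (T-NC-3 left out) to 0.09 (T-NC-1 left out).

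Macrophage genes of the sinuses and medulla were lower. Siglec1 (CD169; chr2:131069220-131086765), the sialic acid receptor of subcapsular sinus and medullary macrophages, measured 149.3, 160.2 and 179.6 CPM in T NC and 236.8, 255.6 and 238.6 CPM in NT NC. The groups lay well apart, with a log2 fold change of -0.58 (SE 0.14; edgeR adjusted p = 0.465) and -0.42 (SE 0.11) in the Bpifa2-adjusted fit. Of 14 tested genes of the list 13 were lower, 5 without overlap and 2 at an unadjusted p under 0.05, against 7.23% and 3.23% of all genes. Mrc1, the mannose receptor, stood at 92.4, 79.3 and 71.5 CPM against 132.4, 115.8 and 120.0 CPM (-0.60, SE 0.23). Mertk, a receptor for dying cells, differed by -0.40 (SE 0.21; -0.25 Bpifa2-adjusted). The pan-macrophage genes of the list, Cd68 and the complement genes C1qa, C1qb and C1qc, had log2 fold changes between -0.10 and 0.04, and between -0.02 and 0.10 Bpifa2-adjusted. The list median was -0.24 and became -0.06 in the Bpifa2-adjusted fit, where 11 of 14 were still lower. With the covariate in the 6 NC libraries alone it was -0.31. The unadjusted median was -0.05 without T-NC-2, -0.13 without NT-NC-1 and -0.43 without the 3 salivary libraries. Cd33, another sialic acid-binding receptor of myeloid cells, was lower by rank among all genes, at 57.8, 66.2 and 62.2 CPM against 82.4, 86.1 and 79.6 CPM (-0.41, SE 0.09).

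Other myeloid cells differed less. Monocyte genes had a median of 0.03 (0.11 Bpifa2-adjusted), with 9 of 16 higher and values of -0.06 (T-NC-1 left out) to 0.15 (NT-NC-2 left out). Fn1, fibronectin, which monocytes and stromal cells both make, stood at 275.5, 172.9 and 162.7 CPM against 139.4, 133.5 and 113.0 CPM (log2 fold change 0.66, SE 0.19). Ifitm3, an antiviral membrane protein, differed by 0.32 (SE 0.13) with overlapping groups. The 3 dendritic cell lists (conventional, migratory and plasmacytoid) had medians of -0.02, 0.13 and -0.10, and of -0.05, 0.00 and -0.11 Bpifa2-adjusted. With 1 library left out the conventional median ran from -0.07 (NT-NC-3) to 0.10 (NT-NC-1). The migratory one ran from -0.02 (T-NC-1) to 0.24 (NT-NC-1) and was -0.11 without the 3 salivary libraries, and the plasmacytoid one ran from -0.17 (T-NC-3) to -0.02 (T-NC-1). Mast cell, basophil and eosinophil genes had a median of -0.23, which ran from -0.36 (NT-NC-1 left out) to 0.01 (NT-NC-3 left out). It was 0.02 Bpifa2-adjusted and -0.12 with the covariate in the 6 NC libraries alone. Within the list the eosinophil granule genes went the other way. Prg2 stood at 2.45, 4.53 and 9.77 CPM against 3.32, 2.75 and 1.67 CPM (1.10, SE 0.41), and Epx at 0.164, 0.924 and 1.36 CPM against 0.225, 0.125 and 0 CPM, and both were highest in T-NC-3 with overlapping groups. The eosinophil chemokine receptor gene Ccr3 differed by -0.89 (SE 0.43).

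**Figure D3:**
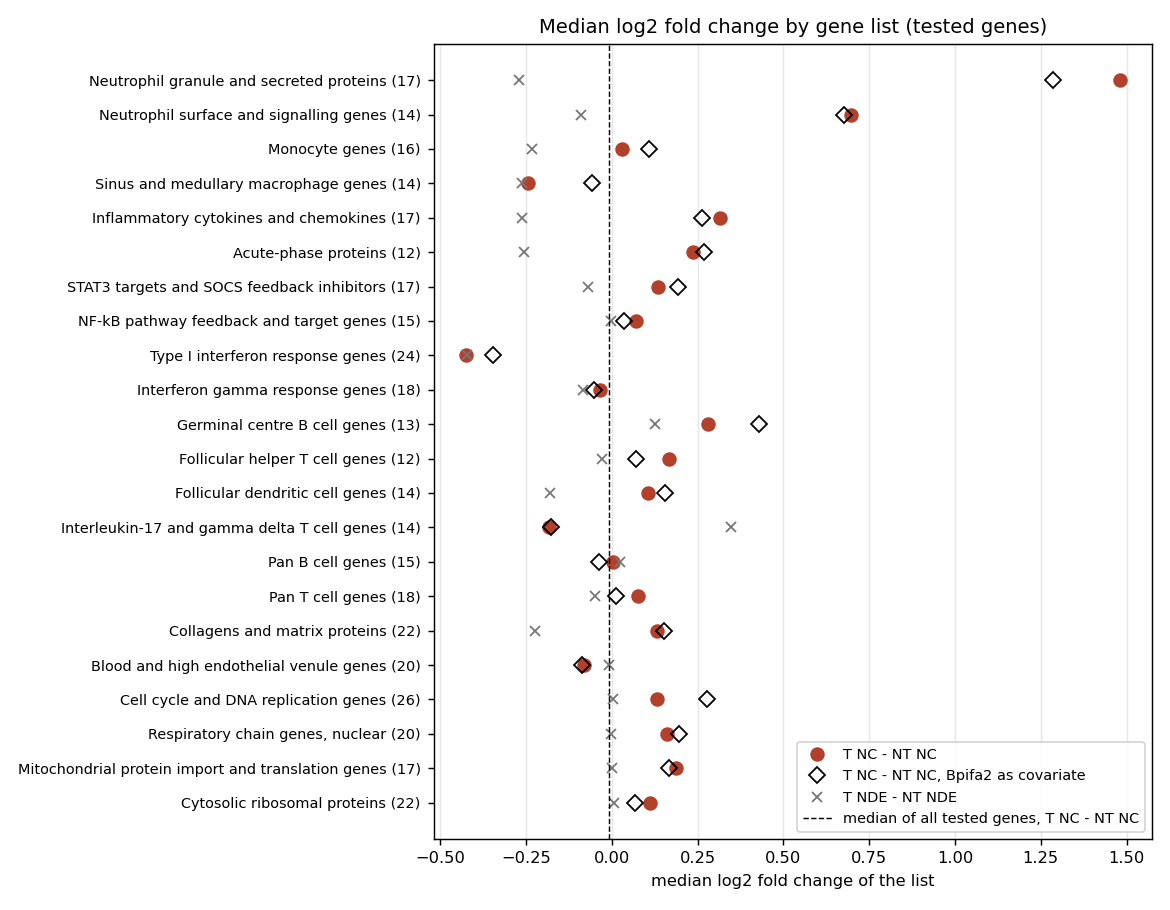
Median log2 fold change of 22 gene lists (horizontal axis; number of tested genes in brackets) for T NC against NT NC (filled circles), the same with Bpifa2 as a covariate (open diamonds) and T NDE against NT NDE (crosses). The dashed line is the median of all tested genes at -0.01; the neutrophil granule list lies at 1.48, 1.29 and -0.27 in that order, and the type I interferon list at -0.42, -0.35 and -0.42.

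Genes of the B cell follicle were slightly higher. Cxcl13, the chemokine that gathers B cells into follicles, measured 236.0, 226.3 and 227.5 CPM in T NC and 157.6, 174.8 and 188.8 CPM in NT NC. Its groups were separate, with a log2 fold change of 0.40 (SE 0.12) and 0.53 (SE 0.11) in the Bpifa2-adjusted fit, where it was among the 6 higher genes of smallest p. Of 14 follicular dendritic cell genes 11 were higher, 3 without overlap and 4 at an unadjusted p under 0.05, with a median of 0.10 (0.16 Bpifa2-adjusted). That median was 0.05 without T-NC-1, 0.17 without T-NC-3 and 0.16 without NT-NC-1. Mfge8, a bridge for the uptake of dying cells, was higher by 0.20 (SE 0.08) and the addressin gene Madcam1 by 0.39 (SE 0.15; 0.22 Bpifa2-adjusted). Among 15 genes of lymphoid chemokines and lymphotoxin, 11 were higher with a median of 0.15 (0.11 Bpifa2-adjusted), and 0.07 without T-NC-1. Ltb, lymphotoxin beta, stood at 408.0, 418.9 and 431.8 CPM against 387.2, 331.8 and 364.9 CPM (0.22, SE 0.09; 0.12 Bpifa2-adjusted), and its receptor family member Tnfrsf14 differed by 0.21 (SE 0.09).

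Il21, the cytokine by which follicular helper T cells drive germinal centres, measured 5.69, 5.91 and 3.26 CPM in T NC and 0.619, 2.50 and 2.27 CPM in NT NC. The lowest tumour library lay above the highest tumour-free one (log2 fold change 1.45 with SE 0.37, or 1.59 Bpifa2-adjusted; adjusted p = 0.465 in edgeR). Tox2, a transcription factor of these cells, stood at 18.4, 19.9 and 16.5 CPM against 13.9, 14.3 and 14.7 CPM (0.36, SE 0.11). Of the 12 tested follicular helper genes 8 were higher, 3 without overlap, and the median was 0.17, against 0.07 Bpifa2-adjusted and 0.08 without T-NC-3. The germinal centre B cell median was 0.28, and 0.43 Bpifa2-adjusted. It was 0.21 with the covariate in the 6 NC libraries alone and 0.44 without the 3 salivary libraries. Of these 13 genes 11 were higher, but the groups were separate for 1 of them. That gene was Mef2b, a transcription factor of germinal centre B cells, at 7.81, 7.62 and 8.05 CPM against 2.64, 6.71 and 3.54 CPM (0.85, SE 0.38). Basp1 and Fas differed by 0.38 (SE 0.12) and 0.24 (SE 0.11). Pan B cell genes had a median of 0.00 (-0.04 Bpifa2-adjusted; -0.07 without NT-NC-1 to 0.12 without NT-NC-2, and 0.21 without the 3 salivary libraries) and plasma cell genes of -0.01, the latter 0.18 in the Bpifa2-adjusted fit and 0.19 when NT-NC-2 was left out.

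Of 26 cell cycle and DNA replication genes 25 were higher, with a median of 0.13. Without overlap were 2, which is about the share of all genes (7.78%). Mcm2, a subunit of the replicative helicase, stood at 97.7, 89.2 and 90.5 CPM against 73.9, 82.5 and 87.3 CPM (log2 fold change 0.19, SE 0.08), and Ccnb2, a mitotic cyclin, differed by 0.35 (SE 0.18). NT-NC-1 was the low library, with a list sum of 1220 CPM where the other 5 held 1624 to 1879 CPM. Without it the median was -0.03. It was 0.06 without T-NC-1, 0.20 without T-NC-3, 0.22 without NT-NC-2, 0.24 without NT-NC-3, 0.28 Bpifa2-adjusted and 0.63 without the 3 salivary libraries. With the covariate in the 6 NC libraries alone it was 0.47.

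T cell lists gave small medians. Pan T cell genes had 0.08 (0.01 Bpifa2-adjusted), which ran from 0.02 with NT-NC-2 left out to 0.16 with T-NC-3 left out and was -0.04 without the 3 salivary libraries. Naive T cell and homing genes had 0.00 (-0.05 Bpifa2-adjusted). Regulatory T cell and checkpoint genes had 0.09 (0.08 Bpifa2-adjusted), from 0.06 with T-NC-1 left out to 0.17 with NT-NC-1 left out and 0.01 without the 3 salivary libraries. Cytotoxic lymphocyte genes had 0.17 in both fits and -0.04 without T-NC-3. The interleukin-17 and gamma delta T cell list held genes that were lower and genes that were higher. Tcrg-V6, a variable segment of the gamma delta receptor used by interleukin-17-producing cells, measured 0.450, 0.693 and 0.296 CPM in T NC and 1.41, 1.75 and 1.16 CPM in NT NC (log2 fold change -1.56, SE 0.43). Sox13, a transcription factor of that lineage, stood at 7.77, 8.68 and 7.40 CPM against 12.4, 10.2 and 10.6 CPM (-0.48, SE 0.17). Il22, the cytokine that acts on epithelium, stood at 0.655, 0.831 and 0.770 CPM against 0.0563, 0.2501 and 0.253 CPM (1.93, SE 0.55). All 3 were without overlap, though Il22 stayed under 1 CPM in all 6 libraries and rests on few counts. Of 14 members 5 lay wholly lower and 2 wholly higher. The median was -0.18 in both fits, -0.33 without NT-NC-1, -0.07 without NT-NC-3 and 0.00 without the 3 salivary libraries. With the covariate in the 6 NC libraries alone it was -0.02. Il22ra2 (chr10:19621998-19634681) encodes a soluble receptor that captures interleukin-22 and is made by dendritic cells. It was among the genes with the largest separation, at 45.6, 32.7 and 20.1 CPM in T NC and 84.8, 80.5 and 73.6 CPM in NT NC (-1.27, SE 0.23; -1.38 Bpifa2-adjusted; edgeR adjusted p = 0.348).

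Stromal, endothelial and nerve-related lists gave small medians, and the adipocyte list a larger one. Of 22 collagens and matrix proteins 19 were higher, 2 without overlap and 5 at an unadjusted p under 0.05, against 7.78% and 4.58% of all genes. Their median was 0.13, against 0.15 Bpifa2-adjusted and 0.01 with the covariate in the 6 NC libraries alone. The unadjusted median ran from 0.07 without NT-NC-3 and 0.08 without T-NC-1 to 0.23 without NT-NC-1 and 0.24 without T-NC-2. Thbs1, thrombospondin, measured 42.6, 38.0 and 39.6 CPM against 24.9, 36.6 and 26.9 CPM (log2 fold change 0.44, SE 0.15), and Col3a1, fibrillar collagen of reticular fibres, differed by 0.43 (SE 0.17) with overlap. Blood endothelial and high endothelial venule genes were lower in 15 of 20 cases with a median of -0.08 (-0.09 Bpifa2-adjusted), and -0.13 (NT-NC-3 left out) to 0.02 (NT-NC-1 left out). Examples were the growth factor receptor genes Flt1 (-0.29, SE 0.13), Kdr (-0.27, SE 0.15) and Tek (-0.24, SE 0.13). The lymphatic endothelial list had a median of -0.10 (-0.15 with T-NC-2 left out to 0.00 with NT-NC-1 left out). It was 0.04 Bpifa2-adjusted and -0.17 with the covariate in the 6 NC libraries alone. Of this list Pdpn stood at 12.4, 10.5 and 9.53 CPM against 8.16, 7.92 and 8.28 CPM (0.41, SE 0.14). The scavenging chemokine receptor gene Ackr2 differed by 0.34 (SE 0.18). Adipocyte genes had a median of 1.17, which was 1.82 Bpifa2-adjusted and 0.36 without T-NC-3. With the covariate in the 6 NC libraries alone it was 1.05. Of the 13 tested 3 were higher without overlap. None of the 13 had an unadjusted p under 0.05, and 5 did in the Bpifa2-adjusted fit. Cfd, adipsin, stood at 5.65, 3.83 and 13.4 CPM against 1.69, 1.79 and 2.78 CPM (1.86, SE 1.13; 3.04 Bpifa2-adjusted). Plin1, a coat protein of lipid droplets, differed by 1.21 (SE 0.79; 1.82 Bpifa2-adjusted) and the adipocyte transcription factor gene Pparg by -0.30 (SE 0.25; -0.18 Bpifa2-adjusted). The summed adipocyte list was 108.4 to 163.9 CPM in T NC and 95.4 to 111.9 CPM in NT NC. The part of adipose tissue in other results was not tested.

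Receptors for the neuropeptides of nociceptors differed little. Calcrl and Ramp1, the paired parts of the CGRP receptor, had log2 fold changes of -0.11 (SE 0.08) and 0.03 (SE 0.13). Ramp1 stood at 24.1, 20.6 and 20.01 CPM in T NC and at 25.4, 17.6 and 20.6 CPM in NT NC, with the groups mixed. Its sign was negative in the Bpifa2-adjusted fit (-0.02), as also without T-NC-1, NT-NC-2 or the 3 salivary libraries. Tacr1, the substance P receptor, stood at 4.42, 4.02 and 3.55 CPM against 3.83, 2.75 and 2.93 CPM (0.34, SE 0.20; 0.14 Bpifa2-adjusted). Calca and Tac1, the genes of the CGRP and substance P precursors, had at most 1 count in any of the 6 libraries. Schwann cell and nerve fibre genes had a median of -0.10 over 15 genes (-0.08 Bpifa2-adjusted), with values from -0.02 without NT-NC-3 to -0.19 without NT-NC-2.

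Genes of mitochondria and ribosomes were higher by small and even amounts. All 20 nuclear genes of the respiratory chain were higher in T NC, 10 without overlap and 10 at an unadjusted p under 0.05, with a median of 0.16 (0.20 Bpifa2-adjusted; 0.11 to 0.21 when any 1 of the 6 libraries was left out). Atp5e, a subunit of ATP synthase, measured 78.5, 78.1 and 79.3 CPM in T NC and 65.0, 60.4 and 69.9 CPM in NT NC (log2 fold change 0.27, SE 0.07). Ndufs6 of complex I and Cox6c of cytochrome c oxidase were higher by 0.32 (SE 0.09) and 0.20 (SE 0.06). Of 17 genes of mitochondrial protein import and translation 15 were higher, 10 without overlap, with a median of 0.19 (0.17 Bpifa2-adjusted; 0.16 to 0.23 with 1 library left out). Tomm5, a small subunit of the outer membrane import pore, stood at 29.9, 28.8 and 31.5 CPM against 21.5, 22.9 and 23.9 CPM (0.40, SE 0.08). Timm13 and Mrpl36 were higher by 0.27 (SE 0.07) and 0.32 (SE 0.09). The exons of Mrpl36 and Ndufs6 overlap, so these genes of separate lists may share reads. Uqcc2, an assembly factor of complex III, and the antioxidant genes Prdx5 and Atox1 were among the 12 higher genes of smallest p, with log2 fold changes of 0.50 (SE 0.11), 0.31 (SE 0.07) and 0.40 (SE 0.08). Prdx5 overlaps exons of Trmt112. Of 22 cytosolic ribosomal protein genes 21 were higher, 9 without overlap, with a median of 0.11, which was 0.07 Bpifa2-adjusted and 0.04 without T-NC-1. Rpl37a stood at 540.7, 507.8 and 534.1 CPM against 426.8, 407.4 and 470.8 CPM (0.28, SE 0.07), and Rpl13 and Rpl32 were higher by 0.24 and 0.23 (SE 0.07 for both).

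Most such transcripts are short, and the difference between T NC and NT NC varied with transcript length over all genes. When tested genes were ranked by total exon length into 10 equal bins the median log2 fold change was 0.06 in the first (956 bases or less), and from the second bin on it was lower in each next bin, down to -0.07 in the last, with 9212 bases or more. At an unadjusted p under 0.05, 7.80% of the shortest bin were higher and 2.20% lower, against 0.925% and 8.21% of the longest bin. The 12 higher genes of smallest p had a median exon length of 1627 bases and the 12 lower ones 4960. With a correction of each library for its length trend the medians were 0.13 for the respiratory chain, 0.17 for mitochondrial import and translation, 0.09 for ribosomal proteins and 1.41 for neutrophil granule genes. The mean level of short relative to long transcripts was above the 12-library average in all 3 T NC libraries (0.17, 0.02 and 0.07 on the log2 scale) and below it in all 3 NT NC libraries (-0.04, -0.05 and -0.05). The source of the trend was not tested, and it was looked for after the values were seen.

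**Figure D4:**
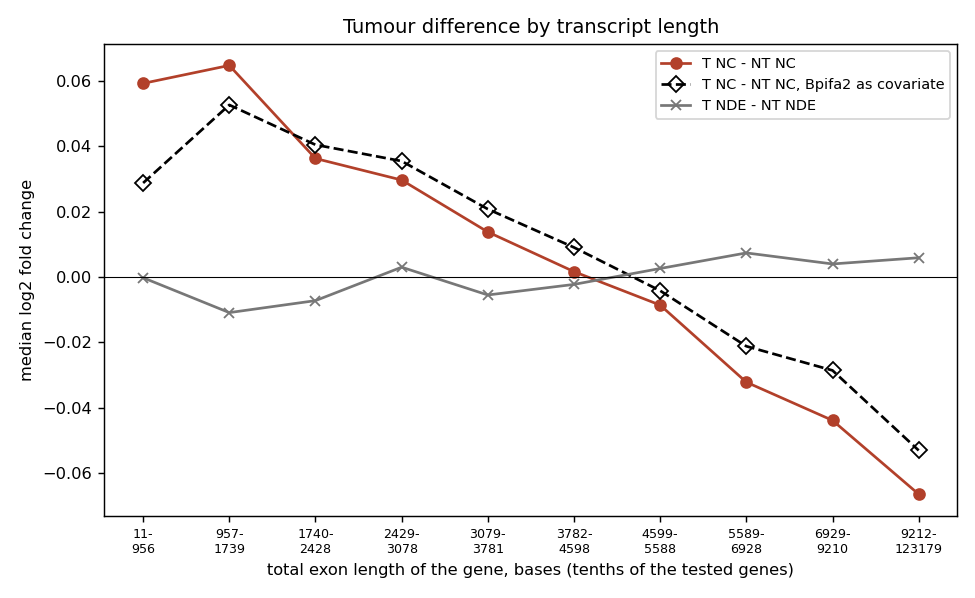
Median log2 fold change (vertical axis) of the tested genes in 10 bins of total exon length in bases (horizontal axis) for T NC against NT NC (circles), the same with Bpifa2 as a covariate (diamonds) and T NDE against NT NDE (crosses). The first series runs from 0.06 in the shortest bin to -0.07 in the longest, and the last stays between -0.01 and 0.01.

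The remaining lower genes of smallest p came from no single group. Mybpc1, a myosin-binding protein of slow skeletal muscle, measured 0.818, 1.201 and 0.533 CPM in T NC and 2.48, 3.46 and 2.37 CPM in NT NC (-1.68 on the log2 scale, SE 0.30; adjusted p = 0.286 in edgeR). The 10 tested skeletal muscle genes as a list had a median of -0.05 (-0.01 Bpifa2-adjusted; -0.10 with T-NC-3 left out to 0.13 with NT-NC-1 left out). All 20 listed ones summed to 93.5 to 115.4 CPM in T NC and to 92.7 to 95.8 CPM in NT NC. Cacna1b, a subunit of the N-type calcium channel of neurons, stood at 7.81, 8.54 and 7.34 CPM against 10.6, 12.8 and 13.3 CPM (-0.63, SE 0.13). Kcnk1, a potassium leak channel, stood at 1.06, 0.970 and 1.01 CPM against 1.80, 2.00 and 4.55 CPM (-1.45, SE 0.38), with its highest value in the most salivary library, and at -0.97 in the Bpifa2-adjusted fit. Col6a5 (-0.62, SE 0.13), the metalloprotease gene Adam33 (-0.51, SE 0.13), Tmem144 (-1.18, SE 0.30), Zfp827 (-0.36, SE 0.10), Fra10ac1 (-0.34, SE 0.08) and the ETS factor gene Etv5 (-0.26, SE 0.07) completed the 12. In the Bpifa2-adjusted fit Adamdec1, a metalloprotease of tissue macrophages, and the sodium channel gene Scn3a entered the 6 lowest, at -0.75 (SE 0.18) and -0.91 (SE 0.24). Among 18 circadian clock genes 13 were lower with a median of -0.19, which was -0.10 Bpifa2-adjusted, -0.08 without T-NC-1 and -0.12 without NT-NC-3. Clock differed by -0.20 (SE 0.07), Nr1d2 by -0.25 (SE 0.12; -0.10 Bpifa2-adjusted) and Dbp by -0.42 (SE 0.20). No source used here gives the hour at which nodes were taken.

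DESeq2, the count test that called genes here, called all 12 higher and 6 of the 12 lower genes named by rank. Lcn2 had its smallest adjusted p (3.14e-09), followed by Hp (1.56e-05) and Socs3 (1.91e-05). In other edgeR fits, the adjusted p of genes named by rank passed 0.05 for Lcn2 and Il22ra2 without T-NC-1, for Il22ra2 without T-NC-3, and for Hp, Socs3 and Siglec1 without T-NDE-3. It also passed for Socs3 without the 3 salivary libraries and for Mybpc1, H2afx, Ifitm6 and Col6a5 without the filter on low counts. Of the 29 genes DESeq2 called higher, 7 belonged to the granule list. Of the 11 it called lower, 5 had over 10 times more CPM in NT-NC-3 than in NT-NC-1. Of all 40 calls, 35 had an unadjusted p under 0.05 in the Bpifa2-adjusted edgeR fit.

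Where the nerves had been inhibited, the tumour difference of these genes had other values, and the difference between both effects passed the edgeR test for no gene. For T NDE against NT NDE the granule list had a median of -0.27 with 5 of 17 genes higher, and its sum was 230.4 to 320.5 CPM in T NDE and 291.4 to 362.7 CPM in NT NDE. Lcn2 differed by -0.28 (SE 0.23) there, Socs3 by -0.34 (SE 0.11), Hp by -0.20 (SE 0.24) and Cxcl13 by -0.37 (SE 0.11). For each of these genes every NT NDE library lay above every NT NC library. Socs3 stood at 132.6, 120.5 and 127.4 CPM in NT NDE, near its T NC level. Cxcl13 stood at 295.3, 276.8 and 264.7 CPM, above every T NC library. In NT NDE Hp (11.95, 15.98 and 15.4 CPM) overlapped T NC, and Lcn2 (16.83, 21.34 and 18.08 CPM) lay below every T NC library. The difference between NT NDE and NT NC was not tested. Siglec1 differed by -0.55 (SE 0.14), at 157.8, 188.9 and 258.1 CPM in T NDE and 294.4, 284.2 and 306.3 CPM in NT NDE, the groups again separate. Type I interferon genes had a median of -0.42 in both settings. The interaction, which is the tumour difference with nerves left alone minus that with nerves inhibited, gave 0 of 17301 genes at an adjusted p of 0.05 in edgeR (0%; smallest adjusted p = 0.321, for Socs3). DESeq2 called 43 genes for it and limma-voom 0, and without the 3 salivary libraries edgeR called 3, Socs3 among them. At an unadjusted p under 0.05 the interaction was positive for 684 genes (3.95%) and negative for 546 (3.16%). It was so for 12 of 17 granule genes, 8 of 17 STAT3 and SOCS genes, 6 of 17 inflammatory genes and 6 of 14 follicular dendritic cell genes in the positive direction. The same held for 7 of 20 complement, 7 of 22 collagen and matrix, 6 of 12 acute-phase and 6 of 17 mitochondrial import and translation genes. In the negative direction it was so for 12 of 16 salivary gland genes and 6 of 10 epithelial genes. Salivary transcripts were highest in NT-NC-3 and T-NDE-3. It was also so for 5 of 14 interleukin-17 and gamma delta T cell genes, with Tcrg-V6 at 1.33 (SE 0.39) in the NDE comparison. Of the 12 higher genes named by rank 12 had an interaction p under 0.05, unadjusted, and 3 were higher in T NDE. Of the 12 lower ones 7 had such a p, and 9 were lower in T NDE as well. The ranking used the T NC and NT NC libraries, so these counts describe the same libraries and are not separate support. T-NDE-3 held 26330 CPM of Bpifa2, more than any other library.

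**Figure D5:**
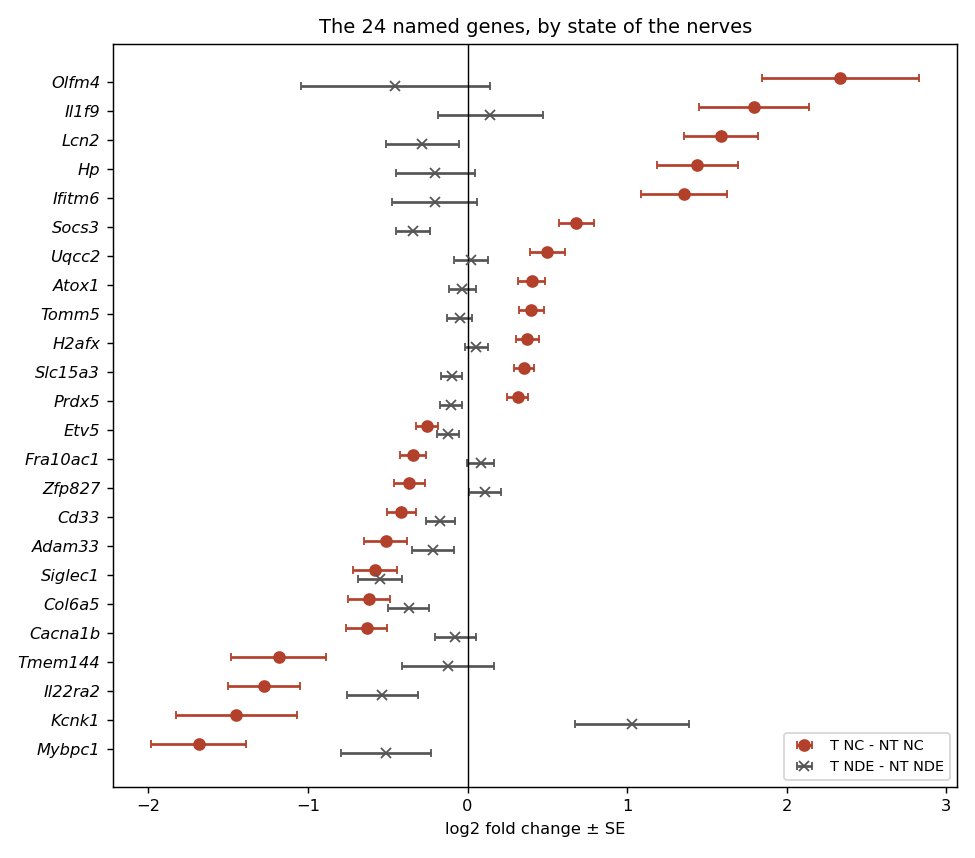
Log2 fold change with bars of 1 SE (horizontal axis) of the 24 genes named by rank, for T NC against NT NC (red circles) and T NDE against NT NDE (grey crosses), 3 libraries per group. The 12 higher genes lie to the right of 0 with nerves left alone and between -0.45 and 0.14 with nerves inhibited, while Siglec1 lies at -0.58 and -0.55.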

How the data were processed

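The authors deposited 1 table of whole-number read counts per gene for 12 libraries. Per the labels' protocols, Trizol was used for RNA and mRNA libraries followed a standard Illumina procedure. Per the submitters' processing notes, HISAT2 2.0 and mm10 were used. The counter, annotation, strand setting and treatment of reads with several matches are not stated in them or in the labels, so reads of overlapping or near-identical genes may be divided unevenly.

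In edgeR 4.0.16 (R 4.3.3), counts passed filterByExpr (minimum count 10, minimum total 15), were scaled by TMM and entered a robust quasi-likelihood model with a mean for each of 4 groups (12 libraries), alone and with the log2 CPM of Bpifa2 as a covariate. P-values are two-sided and Benjamini-Hochberg adjusted over all 17301 genes, with a threshold of 0.05. CPM values of single genes are TMM-scaled, and sums over a list are scaled by the library total alone. Fold changes use a prior count, which limits those of low genes. IDs without a symbol held at most 0.0548% of counts. Scripts were tested on simulated data. Summed over genes with at least 20 counts in a pair of replicates, spread exceeded counting error (chi-square per degree of freedom 7.67 to 54.7 within the NC groups). That sum does not describe low-count genes such as Il22, Tcrg-V6, Tyr, Epx and Sox10, where counting error can be a large part of the spread.

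The comparison, its 54 gene lists and the genes were chosen with earlier results of these data known. Named genes are the 12 higher and 12 lower of smallest p with a mean of at least 1 CPM and no overlap between groups, without antigen receptor segments and unnamed genes, 6 of each in the covariate fit, up to 3 members of smallest p of described lists, and the receptor, melanocyte and Bpifa2 genes, 1 of which is not reported here. Other members were named after their values were seen. Alternatives were DESeq2 1.42.0, limma-voom (limma 3.58.1), other scaling factors, other filters, fewer libraries, a replicate block and, added after seeing the data, a transcript length offset and leaving out NDE libraries. Positions and exon lengths are from GENCODE M21 on mm10, and promoters from RefSeq on GRCm38.p6.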

Additional observations from a re-analysis of the deposited data

How the results depend on the processing

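Against 0 genes between T NC and NT NC, DESeq2 called 40, the fit with no filter 4 (Mybpc1, H2afx, Ifitm6 and Col6a5), the 6 NC libraries with the Bpifa2 covariate 1, the fit without the 3 salivary libraries 7 (Socs3, Il21, Sulf2, Birc5 and Tmem254c among them), and leaving out 1 library 0 to 3 (3 without T-NDE-3, 2 without T-NC-1, 1 without T-NC-2 and 2 without T-NC-3). For the interaction, against 0 genes, DESeq2 called 43, no filter 1, the fit without the 3 salivary libraries 3 and leaving out 1 library 0 to 2 (2 without T-NC-2, 2 without NT-NC-1 and 1 without NT-NC-2). With a replicate block the counts were 0 for T NC against NT NC and 1 for the interaction, and same-numbered T NC and NT NC libraries had correlations of 0.05, -0.07 and 0.04 between their deviations from the group means, so they share only a number. The other settings, including limma-voom, other scaling factors, the stricter filter, the 6 NC libraries alone and the transcript length offset, gave 0 for both or for the one they could fit. The cause of these shifts was not tested.

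Signs turned for 4 of the genes named by rule. Bpifa2 (-8.24) was at 0.014 with itself as covariate, at 0.012 likewise in the 6 NC libraries and 0.013 with the replicate block added, which the construction fixes, and at 1.16 without the 3 salivary libraries. Gpnmb (0.03) was at -0.18 with the covariate, -0.16 with it in the 6 NC libraries, -0.17 without the 3 salivary libraries, -0.0095 with the replicate block, -0.0875 with block and covariate, and from -0.34 to 0.25 when 1 library was left out. Ramp1 (0.03) was at -0.023 with the covariate, -0.13 with it in the 6 NC libraries, -0.22 without the 3 salivary libraries and from -0.086 to 0.18 when 1 library was left out. Mitf (-0.11) was at 0.0020 with block and covariate. None of these genes had an adjusted p under 0.05 in edgeR, and the other genes named by rule kept their sign in all settings run. Genes named after their values were seen are not covered by this.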

Other observations

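Glycolysis and hypoxia response genes had a median log2 fold change of 0.05 (12 of 19 higher), which was 0.10 with Bpifa2 as a covariate and ran from 0.01 (NT-NC-1 left out) to 0.10 (NT-NC-3 left out). Cholesterol synthesis genes had 0.10 (14 of 16 higher, 2 without overlap), 0.13 with the covariate, 0.02 without NT-NC-1, 0.19 without NT-NC-3 and 0.25 without the 3 salivary libraries. Heat shock proteins and chaperones had 0.09 (13 of 16 higher), 0.17 with the covariate, 0.02 without T-NC-1 and 0.14 without NT-NC-3. MHC class II genes had 0.05 (10 of 13 higher), 0.03 with the covariate, and from 0.01 without NT-NC-1 to 0.10 without T-NC-2. Glucocorticoid-responsive genes had -0.04 (7 of 15 higher), 0.09 with the covariate, and from -0.13 without T-NC-3 to 0.01 without NT-NC-3. Erythroid genes had 0.00 over 8 genes, 0.65 with the covariate and -0.04 with it in the 6 NC libraries alone. The immunosuppressive and metastatic niche list had a median of 0.02 over 20 genes (-0.01 without NT-NC-3 to 0.15 without NT-NC-1). It was 0.12 with the covariate and -0.07 with it in the 6 NC libraries alone. Of the list 5 were without overlap and higher, and the leading ones, S100a9, S100a8 and Mmp9, also belong to the neutrophil granule list. Epithelial genes, at -0.71, and salivary gland genes, at -7.36, were at 0.11 and 0.00 with Bpifa2 as a covariate.

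Thbs4, a matricellular protein outside the lists that was named after its values were seen, stood at 29.5, 22.6 and 15.2 CPM in T NC and at 9.17, 7.21 and 13.2 CPM in NT NC (log2 fold change 1.19, SE 0.27), and DESeq2 called it. The antibody segment Ighv1-74 stood at 49.9, 6.47 and 47.3 CPM in T NC and at 6.47, 5.21 and 5.86 CPM in NT NC. It was high in 2 of the 3 tumour libraries, and edgeR called it without the third, T-NC-2. The constant segment Iglc1 was highest in T-NC-2, at 219.0 CPM against 51.0 and 72.8 CPM in the other tumour libraries and 28.1 to 37.7 CPM in NT NC. Reads of near-identical antibody segments may be divided between them.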
